A study of Arabidopsis thaliana with 4 samples.

Results

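Transporters of the SWEET, UMAMIT, AAP and SUC families carry sugars and amino acids through the plant and into the filling seed, and their genes were examined here for binding of LEC1-GFP in Arabidopsis seeds. The genes were taken by name, as every protein-coding gene whose symbol or synonym is SWEET, UMAMIT, AAP or SUC followed only by digits. This gave 78 of the 27444 protein-coding genes on chromosomes 1 to 5, made up of 17 SWEET, 44 UMAMIT, 8 AAP and 9 SUC genes. Binding was measured by chromatin immunoprecipitation followed by sequencing in seeds at the bent cotyledon stage, when the embryo fills with reserves. LEC1-GFP ChIP (2 biological replicates) was set against input, the total fragmented chromatin (2 biological replicates). All 4 libraries came from lec1-1 mutant plants that carried the LEC1:LEC1-GFP:LEC1 transgene, so the only LEC1 followed is the fusion protein, precipitated with an antibody against GFP. Whole seeds were used, and embryo, endosperm and seed coat are not told apart. What was deposited is a single peak list that covers the series, and therefore no value below has a replicate error, no comparison between groups of samples could be tested, and the read depth is unknown.

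A developing Arabidopsis embryo has no vascular link to the mother plant, and its sucrose and amino acids leave the phloem in the seed coat, cross the space between tissues and are taken up again. SWEET proteins are facilitators that let sugars pass down their gradient, and SUC proteins are proton symporters that draw sucrose into cells. UMAMIT proteins export amino acids in the same passive manner, and AAP permeases import amino acids with protons. LEC1 is a subunit of the NF-Y transcription factor and a regulator of seed maturation.

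LEC1-GFP had a peak at 27 of the 78 transporter genes (34.6%), most often at SUC genes and least often at AAP genes. A gene counts as having a peak where at least 1 bp of a peak lies in the gene or within 1 kb of either end. Of all protein-coding genes 24.6% met the same rule (6738 of 27444). The 95% exact binomial interval of the transporter share was 24.2 to 46.2%, which holds the share of all genes, and it covers counting error only. Peaks lay at 5 of 9 SUC genes (55.6%, 21.2 to 86.3%), 6 of 17 SWEET genes (35.3%, 14.2 to 61.7%), 15 of 44 UMAMIT genes (34.1%, 20.5 to 49.9%) and 1 of 8 AAP genes (12.5%, 0.316 to 52.7%). The intervals of the 4 families overlap one another and each holds 24.6%, so the order of the families lies within counting error. Grouped by cargo, the sugar families SWEET and SUC had peaks at 11 of 26 genes (42.3%, 23.4 to 63.1%), and the amino acid families UMAMIT and AAP at 16 of 52 (30.8%, 18.7 to 45.1%).

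**Figure D1:**
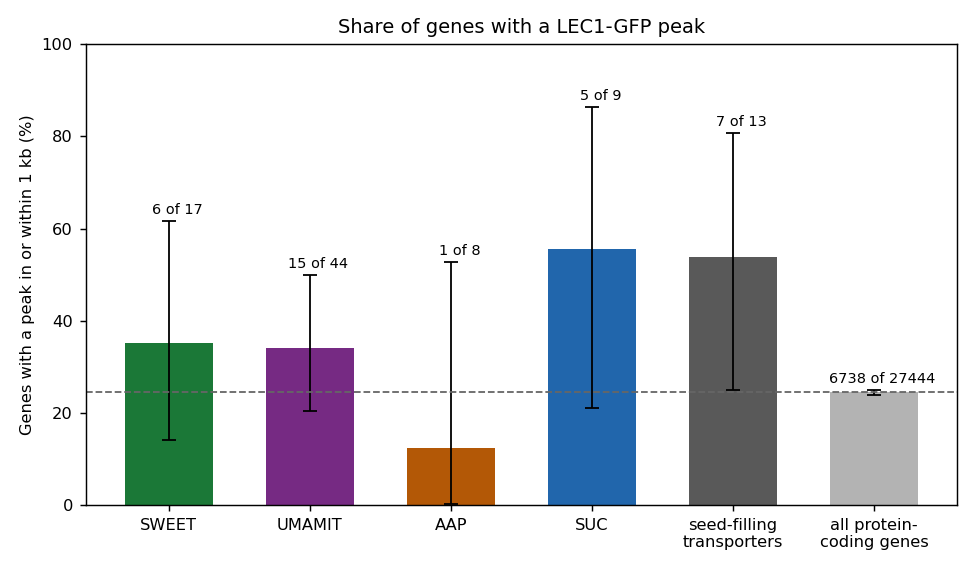
Percent of genes with a LEC1-GFP peak in or within 1 kb, by family, for the transporters known from seed filling (which belong to the 4 families) and for all protein-coding genes. Bars are shares, error bars are 95% exact binomial intervals, and the dashed line is the share of all protein-coding genes (24.6%). Every family's interval crosses the line. The interval of the seed-filling transporters starts just above it (25.1%), for a list chosen with earlier results of these data known.

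Transporters known to feed the Arabidopsis seed had a peak at 7 of 13 genes (53.8%, 25.1 to 80.8%). The other transporters had a peak at 20 of 65 genes (30.8%, 19.9 to 43.4%), and these intervals overlap. Neither share was tested against the 24.6% of all protein-coding genes, and with 2 kb in place of 1 kb the same 7 of 13 stood against 31.5% of all genes. The list of 13 was chosen with earlier results of these data known, so its interval does not cover that choice. The 7 genes were SWEET12, SWEET15, SUC5, UMAMIT24, UMAMIT25, UMAMIT28 and AAP1, so each of the 4 families was represented. The 6 genes without a peak were SWEET11, UMAMIT11, UMAMIT14, UMAMIT18, UMAMIT29 and AAP8. More than 1 peak was found at 5 of the 13, namely SWEET15, UMAMIT24, UMAMIT25, UMAMIT28 and AAP1. Among all 78 transporters 9 had 2 or more peaks (11.5%), against 4.06% of all protein-coding genes (1114 of 27444), and the remaining 4 were UMAMIT5, UMAMIT15, UMAMIT38 and SUC4. At UMAMIT5, UMAMIT15, UMAMIT24, UMAMIT28 and UMAMIT38 this count includes a peak with another gene nearer. In the further lists of sugar and amino acid supply genes given below, 5 of 41 genes had 2 or more peaks (12.2%). The share is thus not particular to the 4 families, and it was not tested.

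The 27 transporter genes had 38 peaks between them, and no peak lay within 1 kb of more than 1 transporter. Seen from the transporter, 24 peaks lay wholly outside the gene, 7 crossed a gene end and 7 lay wholly inside. Over all pairs of a peak and a protein-coding gene within 1 kb (8013 pairs), 54.0% of peaks lay outside, 29.5% crossed an end and 16.5% lay inside. The peak midpoint was within 300 bp of a gene end in 12 of the 38 cases (31.6%), against 53.1% over all pairs. No other protein-coding gene lay within 1 kb of 22 of the 38 peaks (57.9%), against 37.4% of all pairs. A different gene was nearer to the peak than the transporter in 12 of the 38 cases. The transporter was the nearest gene in 68.4% of its pairs, against 71.9% over all pairs, ties included. Of the 27 genes, 21 had a peak to which they were the nearest gene, against 5047 of the 6738 protein-coding genes with a peak. Strand was not part of the gene table, so a position before or after the gene in the direction of transcription is not given.

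**Figure D2:**
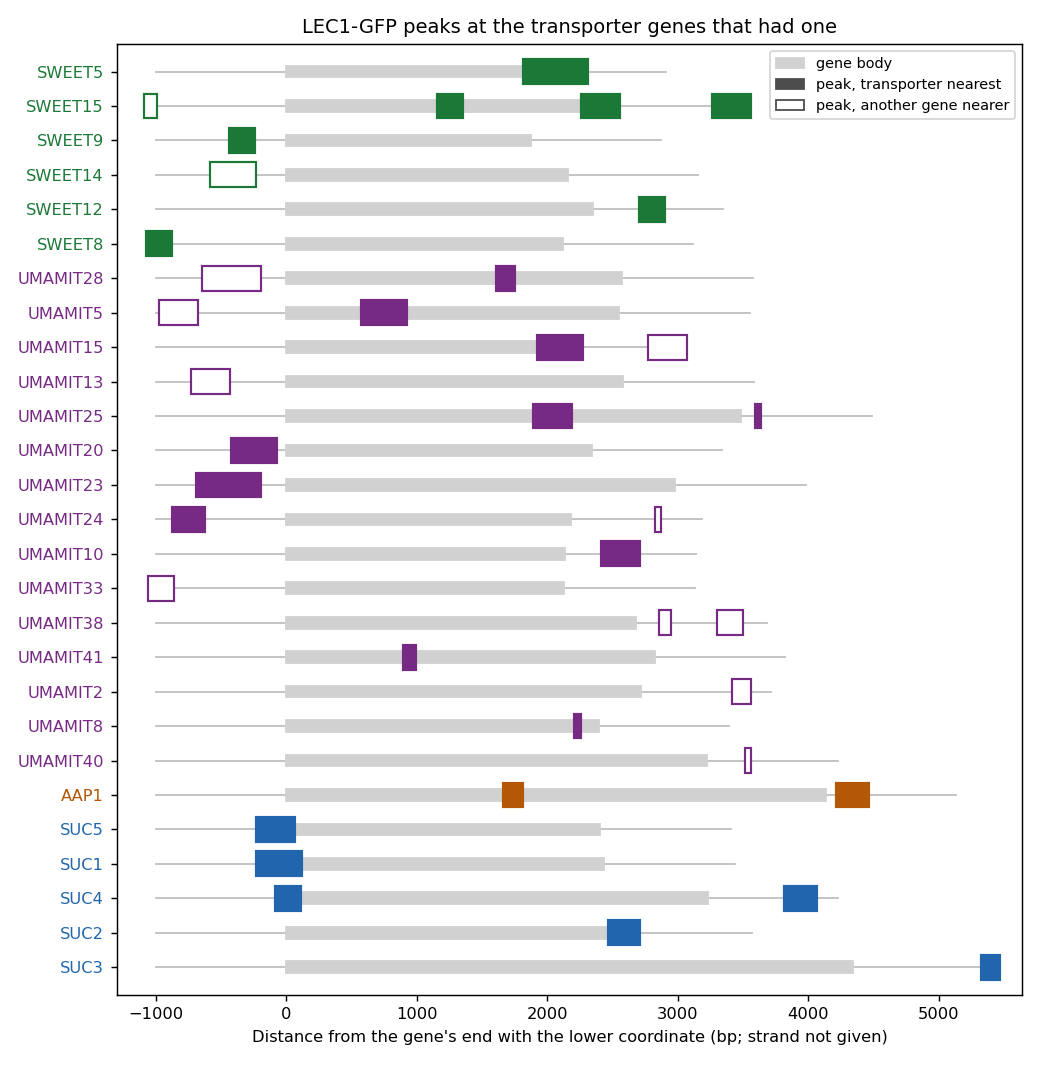
Layout of the 38 LEC1-GFP peaks at the 27 transporter genes, to scale, in bp from the gene end with the lower coordinate. Grey bars are gene bodies, thin lines the 1 kb on either side, filled boxes peaks with the transporter as the nearest gene and open boxes the 12 peaks with another gene nearer. Of the UMAMIT peaks 10 of 21 are open, and none of the 6 SUC peaks are.

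The score is the authors' own value per peak, on a scale the sources used here do not state, and it serves only to rank peaks within the list. Over the 6356 peaks it ran from 1.92 to 4.51 with a median of 2.45. It rose with peak width (Spearman correlation 0.862), so a ranking by score is largely one by width too. The highest score per gene had a median of 2.51 in the 27 transporters and of 2.51 in all 6738 genes with a peak. Family medians were 2.51 for SWEET, 2.50 for UMAMIT and 2.51 for SUC, and AAP1 alone had 2.80. Within families the spread was wide, 2.29 to 3.78 for SWEET, 1.97 to 3.24 for UMAMIT and 2.41 to 3.04 for SUC. These scores were not tested between families. The 7 seed-filling genes with a peak had a median of 2.80, against 2.47 in the 20 other transporters with a peak. Their ranges overlapped, 2.36 to 3.24 against 1.97 to 3.78. The 3.24 was the score of the UMAMIT28 peak that overlapped the neighbouring gene LHY, and the peak inside UMAMIT28 scored 2.20. Of the other transporters, 6 had only peaks with another gene nearer (UMAMIT13, UMAMIT38, UMAMIT2, SWEET14, UMAMIT33 and UMAMIT40). Both medians therefore include scores of peaks nearer to a neighbour. A gene with more peaks has more scores from which the highest is taken. Of the 7 genes 5 had 2 or more peaks, against 4 of the 20, and the difference in median was not tested.

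**Figure D3:**
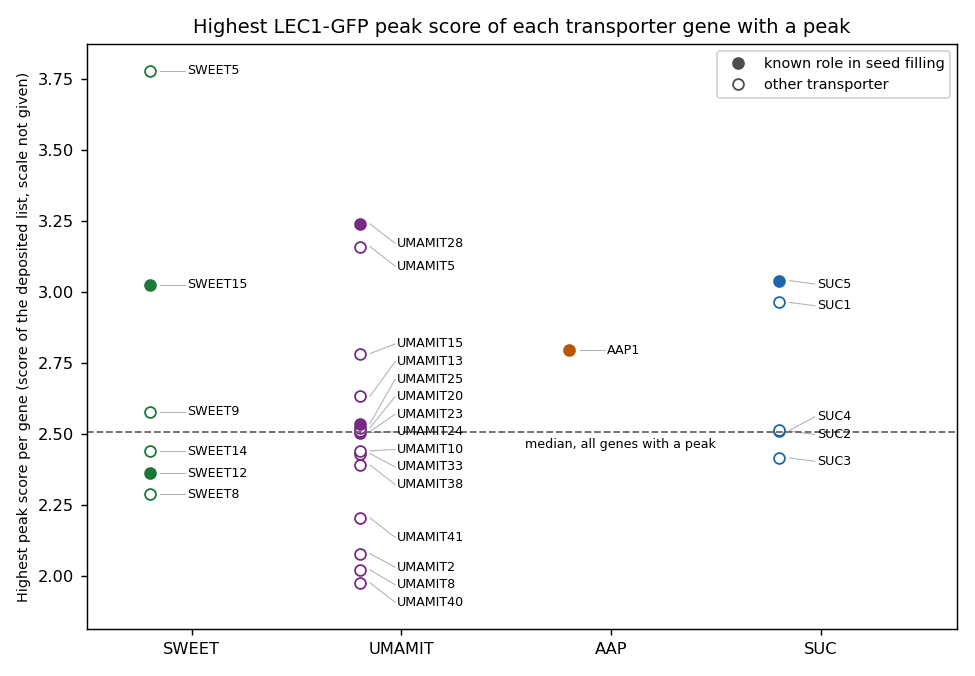
Highest LEC1-GFP peak score of each of the 27 transporter genes with a peak, by family. Filled points are transporters known from seed filling, open points the others, and the dashed line is the median over all protein-coding genes with a peak (2.51). The highest point is SWEET5 at 3.78.

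Among the SWEET genes, SWEET15 had the most peaks. SWEET15, also called SAG29, exports sucrose and acts in seed filling together with SWEET11 and SWEET12. Its 4 peaks had scores of 3.03 (chromosome 5, 4183301 to 4183599, TAIR10), 2.40 (chromosome 5, 4182201 to 4182399), 2.39 (chromosome 5, 4184301 to 4184599) and 2.09 (chromosome 5, 4179951 to 4180049). The highest-scoring of these crossed an end of the gene, with 84.3% of all peaks below it in score. The next lay inside the gene, the third lay 947 bp outside it, and the weakest overlapped the neighbour PBS1, a kinase gene of defence. SWEET12, which also loads the leaf phloem, had a single peak with a score of 2.36, 356 bp outside the gene (chromosome 5, 7974351 to 7974549). SWEET11 had no peak within 1 kb, and its nearest one lay 2669 bp away with a score of 2.97 (chromosome 3, 18057501 to 18057849) and no protein-coding gene within 1 kb of it. The 3 sucrose exporters that act together in seed filling were thus unlike in their peaks, with 4, 1 and 0 of them within 1 kb.

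The highest score of any transporter was at SWEET5, which is expressed in the vegetative cell of pollen. Its peak of 499 bp scored 3.78, with 98.8% of peaks below it (chromosome 5, 25231751 to 25232249), and crossed an end of the gene. The neighbouring gene AT5G62860 lay 383 bp from the same peak. SWEET8, needed for the pollen wall, had a peak with a score of 2.29 at a distance of 879 bp (chromosome 5, 16088601 to 16088799). SWEET9, the sucrose exporter of nectaries, had a peak with a score of 2.58 at 242 bp (chromosome 2, 16306051 to 16306249), and the lectin gene EULS3 lay 418 bp from it. SWEET14, which acts in anthers and also moves gibberellin, had a peak with a score of 2.44 at 236 bp (chromosome 4, 12853801 to 12854149). That peak overlapped the neighbouring alpha-amylase gene AMY1. These genes are best known from flowers, and their peaks were found in seed chromatin.

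By sequence clade, peaks were found at 4 of 7 clade III genes (57.1%, 18.4 to 90.1%), which mainly carry sucrose, against 24.6% of all protein-coding genes. Of these SWEET14 was lost when each peak was given to its nearest gene alone. Clade II, which mainly carries hexoses, had peaks at 2 of 5 genes (40.0%, 5.27 to 85.3%). Clade I (SWEET1, SWEET2 and SWEET3) had a peak at 0 of 3 genes, and clade IV, the tonoplast transporters SWEET16 and SWEET17, at 0 of 2. The upper limits of the exact intervals for these clades were 70.8% and 84.2%, so counts this small do not separate the clades. The remaining SWEET genes without a peak were SWEET4, SWEET6, SWEET7, SWEET10 and SWEET13. The 11 SWEET genes without a peak lay between 2337 bp (SWEET17) and 23824 bp (SWEET4) from the nearest peak.

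Most peaks at sucrose symporter genes crossed an end of the gene. SUC5, the sucrose importer of the endosperm, had a peak with a score of 3.04 (chromosome 1, 27058151 to 27058449) that crossed an end of the gene. SUC1, which acts in pollen and roots, is its neighbour, and its own peak scored 2.96 and also crossed an end (chromosome 1, 27053801 to 27054149). The SUC5 peak lies between these adjacent genes, 1687 bp from SUC1, and was not counted for SUC1. SUC2, the phloem loader of companion cells, had a peak with a score of 2.51 across an end (chromosome 1, 8033051 to 8033299). SUC4, the tonoplast transporter also called SUT4, had a peak across an end with a score of 2.15 (chromosome 1, 3243901 to 3244099) and a further one 585 bp outside with a score of 2.51 (chromosome 1, 3247801 to 3248049). SUC3, also called SUT2 and found in sieve elements and sink tissues, had its peak 982 bp away with a score of 2.41 (chromosome 2, 833601 to 833749). Of the 6 SUC peaks 4 crossed a gene end, against 29.5% of all pairs of a peak and a protein-coding gene. No other protein-coding gene lay within 1 kb of any of the 6, against 37.4% of all pairs. These are 6 peaks at 5 genes, and neither contrast was tested.

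The SUC family divided by number, with a peak at each of SUC1 to SUC5 and none at SUC6, SUC7, SUC8 and SUC9. This split was noticed in the values and was not tested. The nearest peaks lay 3845 bp from SUC7, 7892 bp from SUC9, 29053 bp from SUC6 and 74284 bp from SUC8, the largest distance of any transporter. SUC6 to SUC9 are similar copies of one another, and the sources used here do not say how reads with several matches in the genome were handled, so missing peaks there do not show missing binding.

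The AAP family had a peak at AAP1 only. AAP1 imports amino acids into the embryo and takes them up in roots. Its 2 peaks were one 82 bp outside the gene with a score of 2.80 (chromosome 1, 21680601 to 21680849) and one inside it with a score of 2.32 (chromosome 1, 21678051 to 21678199). AAP1 was the only protein-coding gene within 1 kb of either. AAP8, which acts in early seed development and in phloem loading, had its nearest peak 3778 bp away. AAP2, which moves amino acids from xylem to phloem, lay 5423 bp from a peak, and the root importer AAP5 lay 8293 bp from one. The 4 others, AAP3, AAP4, AAP6 and AAP7, were between 7513 and 30431 bp from the nearest peak. With 8 genes, 1 with a peak allows a share of up to 52.7%, so AAP genes are not shown to be bound less often than those of the other families.

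Among the UMAMIT genes, UMAMIT28 had the highest score. UMAMIT28 exports amino acids in the endosperm. Its peak of 449 bp scored 3.24 (chromosome 1, 37801 to 38249) and lay 195 bp outside the gene, but it overlapped the neighbouring gene LHY, a regulator of the circadian clock. A second, narrower peak with a score of 2.20 lay inside UMAMIT28 (chromosome 1, 40051 to 40199), with no other protein-coding gene within 1 kb.

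UMAMIT24 and UMAMIT25 export amino acids in the developing seed. UMAMIT25 had a peak inside the gene with a score of 2.54 (chromosome 1, 3027951 to 3028249) and a narrow one of 49 bp at a distance of 102 bp with a score of 2.02 (chromosome 1, 3029651 to 3029699). UMAMIT24 had peaks on either side, at 627 bp with a score of 2.50 (chromosome 1, 8856851 to 8857099) and at 642 bp with a score of 2.08 (chromosome 1, 8860551 to 8860599), and the peak at 642 bp overlapped the gene AT1G25275. UMAMIT11, UMAMIT14, UMAMIT18 and UMAMIT29, also exporters of the silique or seed, had their nearest peaks at 2138, 11008, 8148 and 13225 bp.

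UMAMIT5, also called WAT1, exports auxin from the vacuole and is needed for secondary walls. It had a peak inside the gene with a score of 3.16 (chromosome 1, 28338301 to 28338649), above 88.9% of peaks. A second one scored 2.23 at 677 bp (chromosome 1, 28336751 to 28337049) and overlapped its neighbour AT1G75490. UMAMIT15 had a peak across an end with a score of 2.78 (chromosome 5, 4409001 to 4409349) and another at 831 bp with a score of 2.61 (chromosome 5, 4409851 to 4410149), which lay nearer to ABO1, an Elongator subunit gene. UMAMIT20 had a peak with a score of 2.52 at 74 bp (chromosome 4, 5238351 to 5238699). UMAMIT23 had one of 499 bp with a score of 2.51 at 191 bp (chromosome 1, 25550801 to 25551299), and UMAMIT10 one with a score of 2.44 at 276 bp (chromosome 3, 20974901 to 20975199). No other protein-coding gene lay within 1 kb of these 3 peaks.

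At UMAMIT13, UMAMIT33, UMAMIT38, UMAMIT2 and UMAMIT40 a neighbouring gene was nearer to every peak. The UMAMIT13 peak scored 2.63 (chromosome 2, 15721751 to 15722049) and overlapped AT2G37440. The UMAMIT33 peak scored 2.43 (chromosome 4, 13939251 to 13939449) and lay 80 bp from AT4G28030. The UMAMIT38 peaks scored 2.39 (chromosome 4, 8876001 to 8876199), overlapping AT4G15545, and 1.99 (chromosome 4, 8875551 to 8875649). The single peaks of UMAMIT2 and UMAMIT40 were among the lowest in score of all 27 genes, with 2.08 at UMAMIT2 (chromosome 4, 10492451 to 10492599) and 1.97 at UMAMIT40 (chromosome 5, 16085501 to 16085549). UMAMIT8 and UMAMIT41 each had a peak inside the gene of 49 and 99 bp, with scores of 2.02 (chromosome 4, 9360051 to 9360099) and 2.20 (chromosome 3, 10443501 to 10443599). With each peak given to its nearest gene alone, 10 of 44 UMAMIT genes had a peak (22.7%), against 18.4% of all protein-coding genes.

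The other 25 UMAMIT genes without a peak were UMAMIT1, UMAMIT3, UMAMIT4, UMAMIT6, UMAMIT7, UMAMIT9, UMAMIT12, UMAMIT17, UMAMIT19, UMAMIT21, UMAMIT22, UMAMIT26, UMAMIT27, UMAMIT30, UMAMIT31, UMAMIT32, UMAMIT34, UMAMIT35, UMAMIT36, UMAMIT37, UMAMIT42, UMAMIT44, UMAMIT45, UMAMIT46 and UMAMIT47. They lay between 1736 bp (UMAMIT30) and 26975 bp (UMAMIT3) from the nearest peak. UMAMIT45, UMAMIT46 and UMAMIT47 are adjacent on chromosome 3, and none of the 3 had a peak. Such neighbouring copies can share reads, so peaks there are uncertain.

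Over whole families, SUC genes had the smallest median distance to a peak, 982 bp, against 3375 bp for UMAMIT, 4289 bp for SWEET and 7903 bp for AAP genes. With 9 genes the SUC median is the distance of SUC3 alone. On either side of it 4 SUC genes lay at 0 bp and the 4 without a peak at 3845 to 74284 bp. The median was 4045.5 bp over the 78 transporters and 5087.5 bp over all protein-coding genes. A peak overlapped the gene body of 4 of 9 SUC, 2 of 17 SWEET, 6 of 44 UMAMIT and 1 of 8 AAP genes, against 12.5% of all protein-coding genes. Nearest to the 1 kb limit were SUC3 at 982 bp and SWEET8 at 879 bp on the inside, and UMAMIT30 at 1736 bp and UMAMIT21 at 1876 bp on the outside. Within 500 bp, 22 of the 78 transporters had a peak (28.2%), against 20.4% of all protein-coding genes, and within 2 kb 29 had one (37.2%), against 31.5%. The transporters were longer than other genes, with a median length of 2464 bp against 2078 bp over all protein-coding genes, which widens the window in which a peak can fall, and the part of length in the shares was not tested. Transporters with a peak had a median length of 2435 bp and those without one 2493 bp, and over all protein-coding genes these medians were 2349.5 bp with a peak and 1985.5 bp without. By chromosome, 10 of 23 transporters on chromosome 1 had a peak, 3 of 7 on chromosome 2, 2 of 14 on chromosome 3, 6 of 13 on chromosome 4 and 6 of 21 on chromosome 5, against shares of 23.6 to 25.3% of all genes on each.

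**Figure D4:**
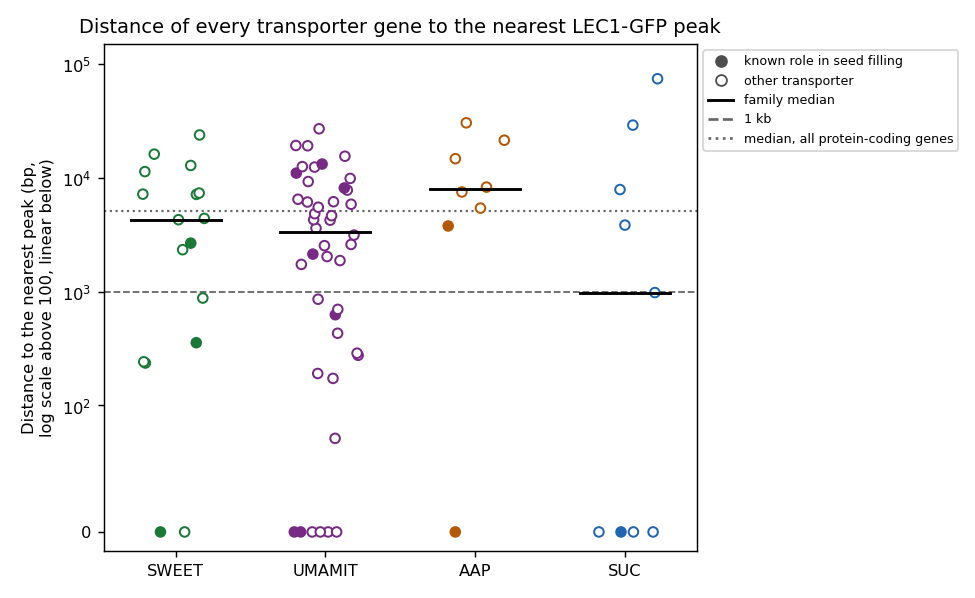
Distance in bp from each of the 78 transporter genes to the nearest LEC1-GFP peak, by family, on an axis that is logarithmic above 100 bp and linear below it. Filled points are transporters known from seed filling, bars are family medians, the dashed line is 1 kb and the dotted line the median of all protein-coding genes (5087.5 bp). SUC is the family with its median below 1 kb (982 bp, the distance of SUC3), and AAP has 7 of 8 genes above 1 kb.

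Other genes that serve the same supply of sugars and amino acids were bound at a share near that of all genes. Across 7 further lists, 11 of 41 genes had a peak (26.8%, 14.2 to 42.9%), against 24.6% of all protein-coding genes. This interval also holds the 34.6% of the 78 transporters, so these lists are not set apart from the transporters either. Sucrose synthases, which split sucrose in the sink, had peaks at 3 of 6 genes, with the highest scores 2.67 at SUS3 and 2.57 at SUS1. Cell wall invertases, which split sucrose outside the cell, had peaks at 2 of 6, CWINV3 with 2.57 and CWINV1 with 2.37. Hexose importers of the STP family had peaks at 2 of 10, STP11 with 3.22 and STP7 with 2.42, and the tonoplast sugar transporters at 1 of 3, TMT2 with 3.06. Cationic amino acid transporters had peaks at 2 of 9, CAT8 with 2.90 and CAT6 with 2.74, proline transporters at 1 of 3, PROT1 with 2.22, and LHT amino acid importers at 0 of 4, with an upper limit of the exact interval of 60.2%. These counts cover the genes matched by name, and 6 names of the LHT list and 4 of the STP list were not matched.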

How the data were processed

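LEC1-GFP ChIP and input chromatin (2 biological replicates each) were sequenced, with Bowtie 0.12.7, SAMtools 0.1.19 and the TAIR10 build named in the submitters' processing notes. How peaks were called, at what threshold and on single or pooled replicates is not given in the sources used. The deposited file is a peak list with a score per peak made by the authors, whose scale is not stated. All 6356 starts lay on a 50 bp grid, which limits the precision of distances, and starts were raised by 1 for printing. Read depth is unknown.

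Genes, symbols and distances were read from RefSeq's table for TAIR10.1, a later release than the TAIR10 of the peaks. As a coarse check that positions match, peaks were moved along the chromosomes. At their own positions 34.0% of midpoints fell in genes. The share was 48.5% and 47.4% when moved by 500 bp down and up, and 64.0% and 62.7% by 10000 bp. Moves below 500 bp were not tried, so the check cannot show a smaller shift. All 78 genes were matched by symbol or synonym, and named pseudogenes of the UMAMIT family were left out. Of the further lists, 41 genes were matched and 10 names were not. Pairing of peaks and genes used Python 3.11.15 with pandas 2.3.3 and was tested on simulated data, and exact intervals came from SciPy 1.17.1. Intervals treat genes as independent. The plan held motif counts and promoter sequences, and strand, but neither sequence nor strand was used here.

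Members and lists were chosen with earlier results of these data known. Every transporter with a peak is named, those without are named by symbol, and up to 2 genes with the highest score per further list are named. No test was made, because the data give no value per sample. Alternatives varied the distance, the overlap, the peaks used and the treatment of shared peaks.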

Additional observations from a re-analysis of the deposited data

How the results depend on the processing

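With the gene body alone, 13 of 78 transporters had a peak (16.7%), against 12.5% of all protein-coding genes, with 2 SWEET and 6 UMAMIT genes among them. With only the higher-scoring peaks (3178 peaks), 16 transporters had one (20.5%), against 13.5% of all genes, with 3 SWEET and 8 UMAMIT genes among them. In 6 other settings (500 bp, 2 kb, flanks alone, peak midpoint in the window, at least 50% of the peak in the window, nearest gene only) the count stayed within 1.5 times of 27. The midpoint and 50% settings gave the same counts, 26 transporters and 6481 of all protein-coding genes, so they are not separate checks. Leaving out the 231 peaks wider than 549 bp could not change it, since the widest transporter peak was 499 bp, and over all 9 settings it ran from 13 to 29. AAP counts were 1 in all 9 settings and SUC counts 4 or 5, where SUC3 was the gene lost. The seed-filling genes, whose settings were chosen after the data were seen, had 5 of 13 with a peak in the gene body (against 12.5% of all genes), 6 within 500 bp (20.4%), 6 with the higher-scoring peaks (13.5%), and 7 within 2 kb (31.5%) and in the others. The median highest score ran from 2.51 to 2.53 within 500 bp and with the nearest gene only. No paired analysis was possible because the deposited list holds no value per replicate, and for the same reason no replicate could be left out. Promoter motifs were not analysed here.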
